A study of Mus musculus with 9 samples.

Results

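The 9 genes described here encode transcription factors that mark position along the brain. Lhx2, Emx2 and Neurod6 are called forebrain genes here, Rax, Six3 and Six6 hypothalamic genes, and Nkx6-2, Irx2 and Zic1 hindbrain genes. These names are groupings and not results. Over all libraries, Six3 and Six6 were highest in a pituitary-like cell class and Zic1 in fibroblast-like and pericyte-like cells, as described below. They were chosen by name, without a threshold on their values but with earlier results of these data known. They are 9 of the 18634 genes in the deposited table. All 9 had at least 1 UMI (unique molecular identifier, the tag that counts 1 captured transcript).

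The cells came from brainstem, cortex and hypothalamus of male C57BL/6 mice, named C57BL/6 J in the study's methods, aged 9 to 11 weeks. They were dissociated with papain, freed of myelin debris with beads and counted in droplets. In the NS group mice slept freely, in the SD group they were kept awake for 12 h from lights on, and in the RS group the same deprivation was followed by recovery, for which the labels give 24 h in one place and 12 h in another. Tissue was collected at ZT12, 12 h after lights on. Each library holds cells of 3 pooled mice and stands alone for its region and sleep group, so no value has a replicate check, and no test or p-value is given.

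The table names its 9 libraries by code only, and they are numbered 1 to 9 here in the order of those codes. All 1999 barcodes held here from the study's list of brainstem NS cells, which is used in part, were found in library 7, and 5 to 13 of them in each other library, so library 7 is brainstem NS. No source used here ties the other 8 libraries to a region or to a sleep group, so NS, SD and RS were not compared, and the levels of position genes were not used to assign a region. Libraries 1 to 3, 4 to 6 and 7 to 9 share the first part of their codes, whose meaning is not given.

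The table holds 29571 cells, 2575 to 3916 per library, and 1522766 to 5488950 UMIs per library. The median cell held 402 UMIs in library 1, 406 in library 2, 565 in library 5 and 744 to 1055 in the other 6 libraries. Of 29015 distinct barcodes, 549 occurred in more than 1 library, in 1105 cells. Cells were clustered without the 9 genes, and 26 of 27 clusters were named from marker lists, among which clusters 21 (endothelial-like), 23 and 24 (microglia-like) and 25 (VSMCA-like) also led with genes of another class. No cluster was named by the lists for oligodendrocytes, their precursors, or tanycytes and pituicytes.

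Position along the neural tube is set in the embryo by transcription factors that are switched on in bands and patches, and many of them stay on in adult cells of the same place. Lhx2 and Emx2 are homeobox genes needed to form the cortex, and Neurod6 encodes a basic helix-loop-helix factor of cortical excitatory neurons. Rax, Six3 and Six6 are homeobox genes of the anterior forebrain, eye, hypothalamus and pituitary. Nkx6-2 and Irx2 are homeobox genes of the hindbrain and spinal cord, and Zic1 encodes a zinc finger factor of the dorsal neural tube that is also known from the meninges.

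Levels are given as CPM, the UMIs of a gene scaled to the total UMIs of the library or cell class, with an exact 95% Poisson interval. Shares of cells with a UMI have an exact 95% Clopper-Pearson interval. Both cover counting error only. In bulk sums over a library, fewer cells of a type and less RNA per cell cannot be told apart.

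The 9 genes fell into separate sets of libraries. Lhx2, Emx2 and Neurod6 had their 3 highest levels in libraries 1 to 3, Rax, Six3 and Six6 in libraries 4 to 6, and Irx2 and Zic1 in libraries 7 to 9. For these 8 genes the intervals of the 3 highest libraries lay above those of all others. Nkx6-2 was the exception, with its highest levels in libraries 8, 9 and 5. The highest library was at least 4 times the median library for 7 of the 9 genes, beside 13.3% of all 14251 genes with at least 50 UMIs, where a value under 3 UMIs was raised to 3. The other 2 were Nkx6-2, at 2.86 times, and Zic1, at 3.15 times. Emx2, Neurod6, Rax, Six3, Six6 and Irx2 reached 50 UMIs only through the libraries where they are high. With no minimum 7 of the 9 passed, beside 10.9% of all genes. Since the genes were chosen with earlier results of these data known, these counts are descriptions. The same limits apply to the shares of summed CPM given below.

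**Figure D1:**
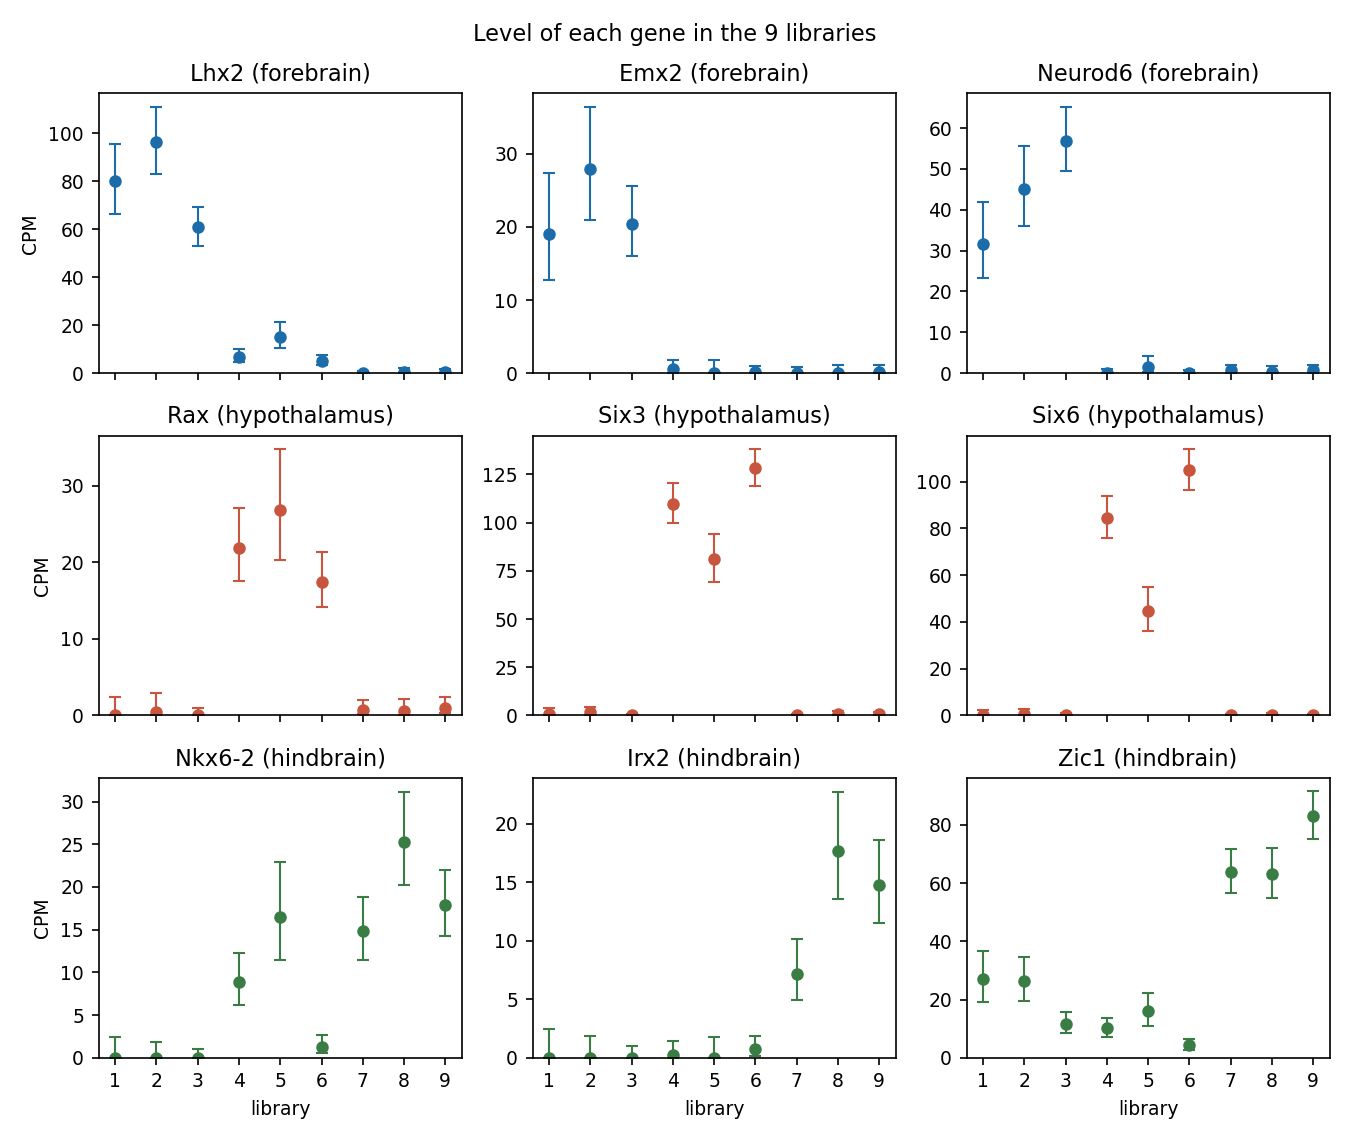
CPM of each of the 9 genes in libraries 1 to 9, with exact 95% Poisson intervals that cover counting error only. Blue panels are forebrain genes, red hypothalamic and green hindbrain genes, and each panel has its own axis. Forebrain genes stand high in libraries 1 to 3, hypothalamic genes in 4 to 6 and Irx2 and Zic1 in 7 to 9, while Nkx6-2 is also seen in 4 and 5.

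Lhx2 (chr2:38339281-38369733, plus strand, build GRCm38), a selector gene of cortical fate, had 122, 186 and 223 UMIs in libraries 1 to 3, 27, 32 and 28 in libraries 4 to 6, and 0, 2 and 3 in libraries 7 to 9. Its levels were 80.1, 96.2 and 60.7 CPM in libraries 1 to 3 and 6.81, 15.1 and 5.10 CPM in libraries 4 to 6. Libraries 1 to 3 thus held 89.4% of its CPM summed over libraries, and the intervals of libraries 4 to 6 lay above those of libraries 7 to 9. In library 7 a count of 0 allows up to 0.83 CPM by the exact interval. Lhx2 was lower in cells of at least 1000 UMIs, at 59.2, 69.1 and 57.2 CPM in libraries 1 to 3. The levels of libraries 4 to 6 were then 3.03, 9.05 and 2.94 CPM.

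Emx2 (chr19:59458372-59465357, plus strand), which patterns the cortical sheet, had 29, 54 and 75 UMIs in libraries 1 to 3, or 19.0, 27.9 and 20.4 CPM. It had 2, 0 and 1 UMIs in libraries 4 to 6 and 0, 0 and 1 in libraries 7 to 9. The 3 levels of libraries 1 to 3 had overlapping intervals. In cells of at least 1000 UMIs they were lower, at 3.48, 8.13 and 11.1 CPM. Its antisense neighbour Emx2os, which overlaps the gene on the opposite strand, had 15, 21 and 46 UMIs in libraries 1 to 3 and 1 UMI in all other libraries together. The sources used here do not state whether counting used strand, so reads of the overlapping pair may not be separated. The same limit touches Six6 and 4930447C04Rik (429 UMIs), Nkx6-2 and Inpp5a (780 UMIs) and Zic1 and Zic4 (512 UMIs), which overlap on opposite strands.

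Neurod6 (chr6:55677822-55681263, minus strand) had 48, 87 and 209 UMIs in libraries 1 to 3, or 31.5, 45.0 and 56.9 CPM. Libraries 4 to 9 had 0, 3, 0, 3, 1 and 4 UMIs. The interval of library 1 (23.2 to 41.8 CPM) lay below that of library 3 (49.5 to 65.2 CPM), and library 2 overlapped both. In cells of at least 1000 UMIs the levels were 73.1, 92.2 and 76.2 CPM, without that order. Libraries 1 to 3 held at least 90% of the summed CPM of Neurod6 and Emx2, at 97.7% and 98.7%. The same held for 1.01% of genes with at least 50 UMIs.

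Rax (chr18:65928277-65939787, minus strand), the retina and hypothalamus homeobox gene that stays on in adult tanycytes, had 87, 57 and 96 UMIs in libraries 4 to 6. These were 21.9, 26.9 and 17.5 CPM, with overlapping intervals. Libraries 1 to 3 had 0, 1 and 0 UMIs, and libraries 7 to 9 had 3, 2 and 5.

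Six3 (chr17:85613608-85629302, plus strand), which keeps the anterior forebrain free of posterior signals, had 435, 172 and 704 UMIs in libraries 4 to 6. Its levels were 109.7, 81.1 and 128.3 CPM there and at most 1.55 CPM in the other 6 libraries, which held 1, 3, 0, 0, 2 and 3 UMIs. The interval of library 5 (69.4 to 94.1 CPM) lay below those of libraries 4 (99.6 to 121 CPM) and 6 (119 to 138 CPM).

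Six6 (chr12:72939892-72944899, plus strand), the closest relative of Six3 among the 9 genes and a factor of eye and pituitary growth, followed the same order. It had 335, 95 and 576 UMIs in libraries 4 to 6, or 84.5, 44.8 and 104.9 CPM with intervals that did not overlap, and 1 UMI in all other libraries together. In cells of at least 1000 UMIs Six6 was at 22.1 CPM in library 5 and Rax at 11.4, 11.1 and 10.0 CPM in libraries 4 to 6. Libraries 4 to 6 held 95.9% of the summed CPM of Rax, 98.9% of Six3 and 99.8% of Six6. Of genes with at least 50 UMIs, 0.821% had 90% or more there.

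Libraries 4 to 6 also held 5763 of the 5778 pituitary endocrine-like cells, and the hormone gene Gh took 25.3%, 27.9% and 32.1% of their UMIs, which by the way CPM is computed lowers every other gene there. With 7 pituitary hormone genes left out of the totals, Rax, Six3 and Six6 kept their leading libraries and the ratio to the values above was at most 1.61 over all libraries and members with 20 or more UMIs.

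Six3 and Six6 shared libraries and, as described below, cells. Their RefSeq windows, from 250 bases before to 50 bases after a RefSeq start (build GRCm38.p6), are shown with the longest run they share, TTGATTGGCAG, in capitals, which spans bases 98 to 108 of the Six3 window (chr17:85620584-85620883, plus strand, at a start inside the gene span given above) and bases 180 to 190 of the Six6 window (chr12:72939632-72939931, plus strand), counted from the 5′ end. The run holds CCAAT read on the other strand, a motif present on either strand in 37.4% of 32544 distinct windows of 300 bases.
Six3: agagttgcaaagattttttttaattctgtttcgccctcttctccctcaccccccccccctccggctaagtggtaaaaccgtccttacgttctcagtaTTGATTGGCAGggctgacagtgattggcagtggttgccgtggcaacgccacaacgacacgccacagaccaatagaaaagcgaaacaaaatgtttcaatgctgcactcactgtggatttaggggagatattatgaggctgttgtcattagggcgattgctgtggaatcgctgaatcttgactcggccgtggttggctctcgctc
Six6: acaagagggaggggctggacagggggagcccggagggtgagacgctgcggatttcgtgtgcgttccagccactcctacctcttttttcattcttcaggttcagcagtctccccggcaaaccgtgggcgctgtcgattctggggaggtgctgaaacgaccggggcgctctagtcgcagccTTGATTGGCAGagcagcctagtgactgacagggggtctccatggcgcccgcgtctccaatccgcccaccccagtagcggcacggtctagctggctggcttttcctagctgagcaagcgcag
Of these windows 12, or 0.0369%, hold this run of 11 bases on either strand, and the run was picked because the pair shares it. A shared run of that length is not particular to the pair, since 6 of the 28 pairs among the 8 genes with a window share one at least as long and the median pair shares 9.5 bases. No window for Rax is shown.

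Irx2 (chr13:72628820-72634198, plus strand), of the Iroquois family, had 32, 61 and 72 UMIs in libraries 7 to 9, or 7.20, 17.7 and 14.8 CPM. Libraries 1 to 6 had 0, 0, 0, 1, 0 and 4 UMIs. Library 7 (4.92 to 10.2 CPM) lay below libraries 8 (13.6 to 22.8 CPM) and 9 (11.6 to 18.6 CPM). Libraries 7 to 9 held 97.6% of its summed CPM, beside 0.225% of genes with at least 50 UMIs that had 90% or more there.

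Zic1 (chr9:91358058-91365810, minus strand) was counted in all 9 libraries, with 41, 51, 43, 40, 34, 24, 284, 217 and 405 UMIs. The levels were 26.9, 26.4, 11.7, 10.1, 16.0 and 4.37 CPM in libraries 1 to 6 and 63.9, 63.0 and 83.1 CPM in libraries 7 to 9. Library 9 (75.2 to 91.6 CPM) lay above library 8 (54.9 to 72.0 CPM). In cells of at least 1000 UMIs library 2 had 9.49 CPM. Its neighbour Zic4, which overlaps it on the opposite strand, had 10 to 26 UMIs in each of libraries 1 to 6 and 125, 82 and 196 in libraries 7 to 9.

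Nkx6-2 (chr7:139579376-139582797, minus strand), a repressor in neural tube patterning that oligodendrocytes also use, had 0 UMIs in libraries 1 to 3. It had 35, 35 and 7 UMIs in libraries 4 to 6 and 66, 87 and 87 in libraries 7 to 9, or 8.83, 16.5, 1.28, 14.8, 25.3 and 17.8 CPM. The interval of library 5 (11.5 to 22.9 CPM) overlapped those of all of libraries 7 to 9, so of the 3 hindbrain genes this one did not set libraries 7 to 9 apart from the rest. Ranked by the share of cells in place of CPM, its 3 highest libraries were 7, 8 and 9, at 1.45%, 2.05% and 2.05% of cells, beside 1.22% in library 5. In cells of at least 1000 UMIs Nkx6-2 was at 4.54, 0 and 1.22 CPM in libraries 4 to 6 and 11.8, 7.20 and 14.8 CPM in libraries 7 to 9. Its UMIs in library 5 thus all lay in shallower cells, and its level in library 8 was lower too. Astrocyte-like cells, the class with most of its UMIs, had medians of 466 UMIs in libraries 4 to 6 and 759 in libraries 7 to 9. The part of their loss in these levels was not tested. Cells were passed over myelin removal beads and no cluster was named oligodendrocyte, and the part of this in the levels of Nkx6-2 was not tested.

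Single cells carried few of these transcripts. Forebrain genes were found in 966 cells, hypothalamic genes in 1662 and hindbrain genes in 1348, in all 3898 cells or 13.2% of the total, and 78 of these, 2.00%, held genes of more than 1 position. The share with Lhx2 was 4.54%, 5.39% and 7.25% in libraries 1 to 3. After thinning each cell to 500 UMIs it was 5.24%, 4.74% and 3.21%, so the order of the libraries by raw share is not that by thinned share or CPM. Thinning left out shallower cells and kept 840, 1139 and 2745 cells there.

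For Six3 the share was 9.08%, 5.28% and 12.0% of cells in libraries 4 to 6, and 4.93%, 4.11% and 4.93% after thinning. The higher raw share in library 6 went with a median of 1055 UMIs per cell, against 565 in library 5. For Zic1 the share was 6.11%, 5.03% and 8.81% in libraries 7 to 9, and 3.16%, 2.64% and 3.80% after thinning, above the 1.19% or less in each of libraries 1 to 6.

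Cell classes were compared over all 9 libraries together, which differ in their classes. Emx2 was found in astrocyte-like cells, at 41.9 CPM (34.8 to 50.1), with 120 of its 162 UMIs. Neurod6 was found in neuron-like cells, at 62.3 CPM (55.8 to 69.3), with 334 of its 355 UMIs, of which 306 lay in cluster 3, led by Nrgn and Slc17a7. Lhx2 was at 90.2 CPM (79.5 to 101.9) in astrocyte-like cells, 45.1 CPM in neuron-like cells and 80.5 CPM (60.3 to 105.3) in the cluster that stayed unnamed, and in libraries 4 to 6 at 39.4 CPM (18.0 to 74.8) in astrocyte-like cells and 88.4 CPM (66.0 to 116) in that cluster. The intervals of these 2 classes overlapped in both cases, so neither led.

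**Figure D2:**
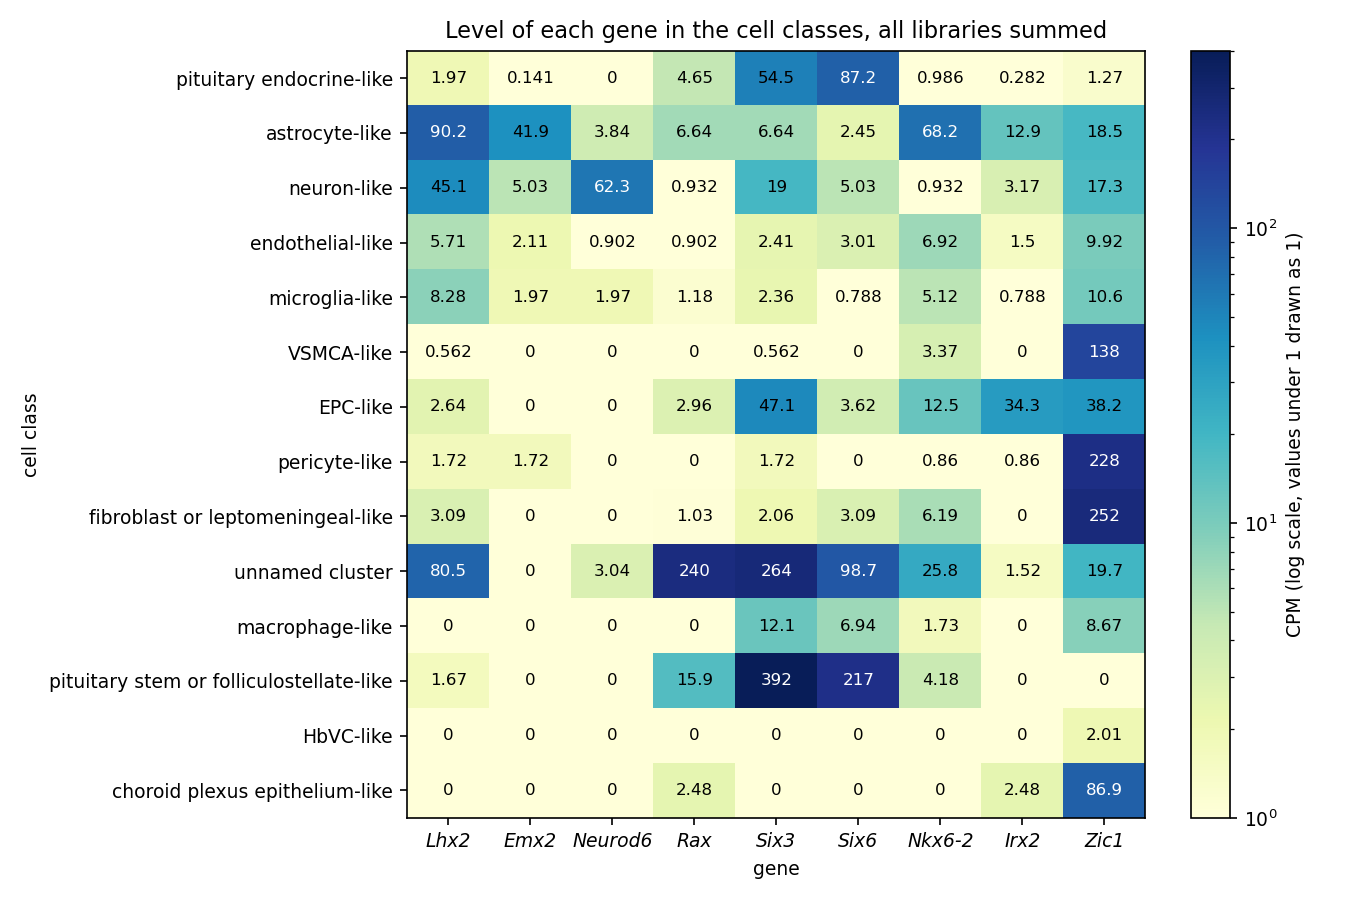
CPM of each gene in each cell class, over all 9 libraries, with the value printed in each cell and the colour on a log scale. Lhx2 is high in astrocyte-like cells and the unnamed cluster, Emx2 in astrocyte-like cells, Neurod6 in neuron-like cells, Rax in the unnamed cluster, Six3 and Six6 in pituitary stem or folliculostellate-like cells, Irx2 in EPC-like and astrocyte-like cells and Zic1 in pericyte-, VSMCA- and fibroblast-like cells.

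That cluster held 744 cells, 661 of them from libraries 4 to 6, and was led by Col25a1, Rax, Col23a1 and Scn7a, with Six3 among its 10 leading genes, although neither Rax nor Six3 was used to cluster. Of 7 markers of tanycytes (ependymal cells of the third ventricle floor) and pituicytes (glia of the posterior pituitary), 6 were at least 2-fold higher there, but only 2 of these were found in 10% of its cells, so the cluster was given no name. It held 158 of the 251 UMIs of Rax, at 240.0 CPM (204 to 280.5), and 17.2% of its cells had one. Rax was at 271, 239 and 289 CPM there in libraries 4, 5 and 6, with overlapping intervals.

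Six3 and Six6 had their highest levels in the 507 pituitary stem or folliculostellate-like cells, named from Cyp2f2, Lcn2, Mia and Aldh1a2 among others. Six3 was at 392 CPM (358 to 429.6) and found in 45.8% of these cells, and Six6 at 217 CPM (191 to 245) and in 34.1%. Six3 was also at 264 CPM in the unnamed cluster and Six6 at 98.7 CPM there. By library the intervals of Six3 in these 2 classes overlapped in each of libraries 4 to 6, at 350.0, 242 and 430.1 CPM in the first and 267, 339 and 300.0 CPM in the second. In pituitary endocrine-like cells Six3 was at 54.5 CPM and Six6 at 87.2 CPM, and these cells held 619 of the 1007 UMIs of Six6.

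The classes shared by the brain separated the 3 hypothalamic genes further. In the 924 neuron-like cells of libraries 4 to 6, Six3 was at 129 CPM (105 to 158), Six6 at 36.0 CPM (23.7 to 52.4) and Rax at 6.67 CPM (2.17 to 15.6). In their 540 EPC-like cells (ependymocytes, the ciliated lining of the ventricles), Six3 was at 172 CPM (145 to 202), Six6 at 13.2 CPM and Rax at 9.60 CPM. The 1090 EPC-like cells of libraries 7 to 9 had 0 UMIs of Six3, which allows up to 1.67 CPM. Microglia-like cells, which should lack these genes, had 36.7 CPM of Six3 (13.5 to 79.9), 12.2 of Six6 and 18.4 of Rax in libraries 4 to 6, which is read as background. The Six3 intervals of neuron-like and EPC-like cells lay above it, and those of Six6 and Rax overlapped it. In the pituitary endocrine-like cells of these libraries Six6 (80.5 to 94.4) lay above it, and Six3 (49.3 to 60.3) lay within it, where the background rests on 6 UMIs. Six3 was found in 12.1% (9.40 to 15.3) of the 503 pituitary endocrine-like cells with Six6 there and in 5.53% (4.93 to 6.18) of those without, at medians of 1002 and 1027 UMIs. Astrocyte-like cells of libraries 4 to 6 had 70.0 CPM of Six3 (40.0 to 114) and 56.9 CPM of Rax (30.3 to 97.3), both overlapping the microglia-like interval.

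**Figure D3:**
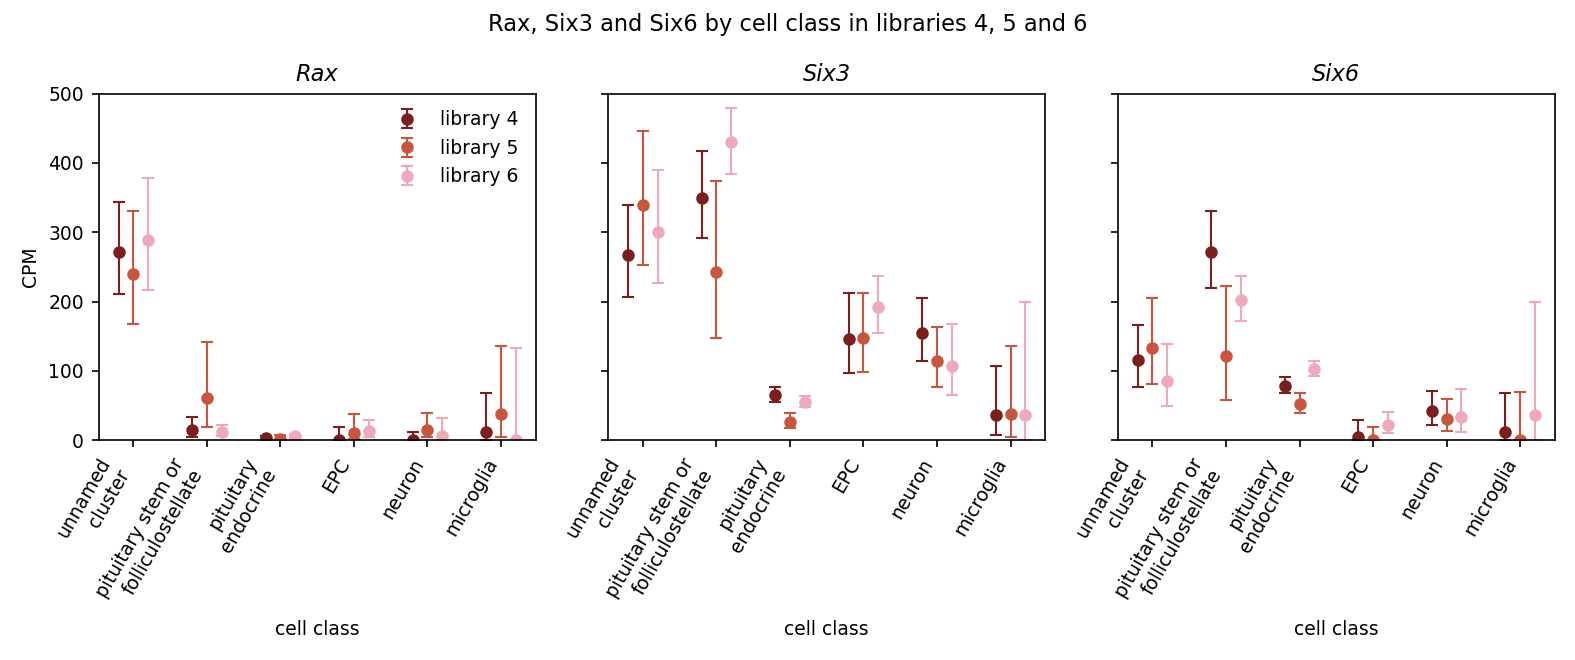
CPM of Rax, Six3 and Six6 in 6 cell classes of libraries 4, 5 and 6, with exact 95% Poisson intervals. Rax is high only in the unnamed cluster among the classes drawn, Six3 also in pituitary stem or folliculostellate-like, EPC-like and neuron-like cells, and Six6 in the unnamed cluster and both pituitary classes, while microglia-like cells give the background level.

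Six3 and Six6 were found together in 194 cells. Within the pituitary stem or folliculostellate-like cells, 104 of 173 cells with Six6 also had Six3, 60.1%, against 38.3% of the 334 cells without Six6. Cells with Six6 were deeper, at a median of 2713 UMIs against 1499. In the unnamed cluster within libraries 4 to 6, Six3 was found in 32.8% of the 128 cells with Rax (24.8 to 41.7) and in 17.4% of the 533 cells without (14.3 to 20.9), at median depths of 752 and 722 UMIs. Lhx2 was found in 12.5% of those cells with Rax (7.32 to 19.5) and 5.63% of those without (3.83 to 7.94), with overlapping intervals.

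Lhx2 and Emx2 were found together in 16 cells. Within libraries 1 to 3, 11.5% (6.27 to 18.9) of the 113 astrocyte-like cells with Emx2 also had Lhx2, against 7.16% (6.27 to 8.13) of those without, at medians of 553 and 438 UMIs. Of the 263 neuron-like cells with Neurod6 there, 8.75% (5.62 to 12.8) had Lhx2, against 7.74% (6.71 to 8.87) of those without, at 1977 and 1030.5 UMIs. The intervals overlapped in both cases. No cell held Lhx2 with Nkx6-2 or with Irx2.

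Astrocyte-like cells were present in all 9 libraries, and the genes differed within them. Lhx2 was at 147, 200.3 and 119 CPM in the astrocyte-like cells of libraries 1 to 3, and at 28.9, 59.2 and 0 CPM in those of libraries 4 to 6, which rest on 9 UMIs. It had no UMI in the 1173 astrocyte-like cells of libraries 7 to 9, which allows up to 3.74 CPM. Nkx6-2 went the other way, with no UMI in 3172 astrocyte-like cells of libraries 1 to 3, which allows up to 2.24 CPM.

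In the astrocyte-like cells of libraries 4 to 6 Nkx6-2 was at 162 CPM (114 to 223) and in 8.23% of cells, and in those of libraries 7 to 9 at 160.0 CPM (136 to 187) and in 10.7%. Its lower level over all cells of library 6 went with only 21 astrocyte-like cells there, where it had 1 UMI. Irx2 had no UMI in the astrocyte-like cells of libraries 1 to 6 and was at 18.6, 49.9 and 39.6 CPM in those of libraries 7 to 9. The 0 of Irx2 in 413 astrocyte-like cells of libraries 4 to 6 allows up to 16.1 CPM. This lies below the interval of libraries 7 to 9 together (26.4 to 51.6) but within that of library 7 alone (6.04 to 43.4). Nkx6-2 was counted with more than 3 UMIs in the astrocyte-like cells of libraries 4, 5, 7, 8 and 9.

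The class was held by different clusters. Most astrocyte-like cells of libraries 1 to 3 lay in clusters 4 and 11, led by Htra1 and Pantr1, and most of those of libraries 4 to 9 in cluster 9, led by Agt, Slc6a11 and Itih3. Cluster 9 held 190 of the 317 UMIs of Nkx6-2. Microglia-like cells gave 52.3 CPM of Lhx2 (32.4 to 80.0) in libraries 1 to 3, at a median depth of 339 UMIs, below the 151 CPM (133 to 171) of astrocyte-like cells at 441 UMIs. Cluster 23, whose leading genes include Slc4a4 of astrocyte cluster 9, held 12 of these 21 UMIs in 99 of the 876 cells, and microglia-like clusters 6 and 12 together gave 22.6 CPM (9.09 to 46.6) from 7 UMIs in 739 cells. Neuron-like cells of libraries 1 to 3 had 59.5 CPM of Lhx2 (52.2 to 67.6), within the interval of all microglia-like cells and above that of clusters 6 and 12, a background chosen after seeing the data. Microglia-like cells gave 6.08 CPM of Nkx6-2 in libraries 7 to 9, with 8 of 12 UMIs in cluster 23.

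**Figure D4:**
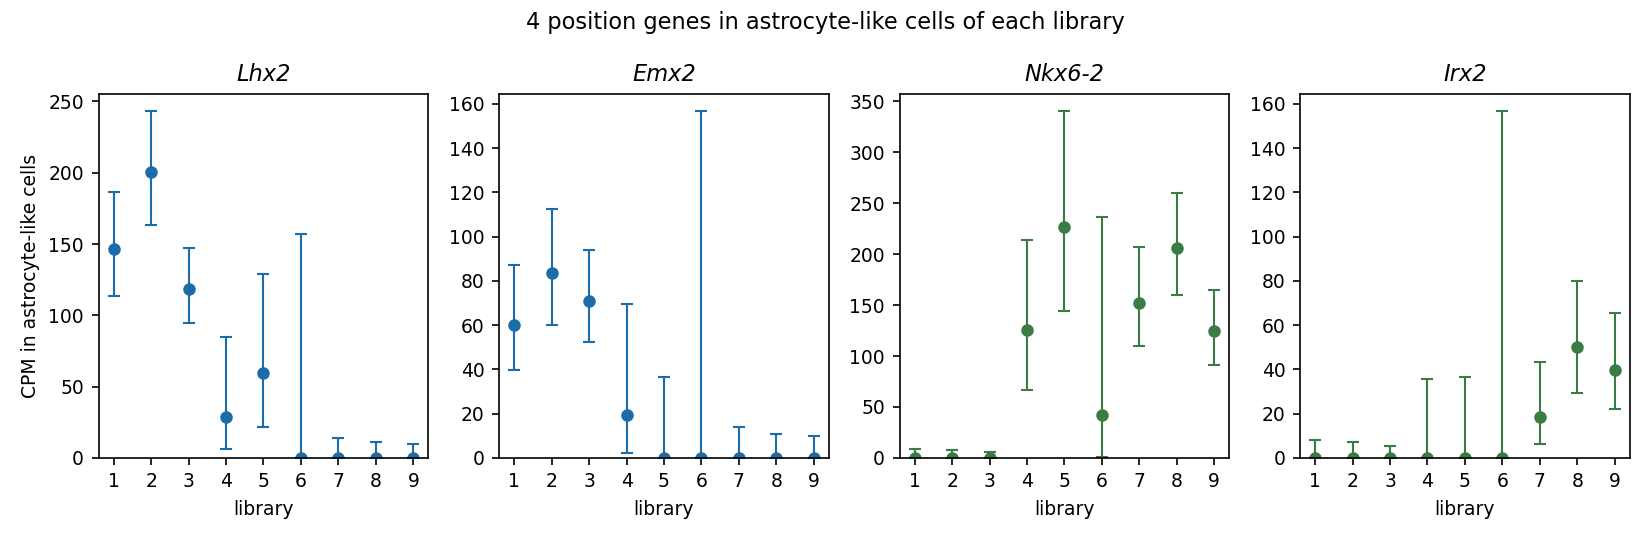
CPM of Lhx2, Emx2, Nkx6-2 and Irx2 in astrocyte-like cells of libraries 1 to 9, with exact 95% Poisson intervals. Library 6 has 21 such cells, hence its wide intervals. Lhx2 and Emx2 are high in libraries 1 to 3, Nkx6-2 has no UMI there, 1 in library 6 and more in the others, and Irx2 is counted in 7 to 9.

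EPC-like cells held 104 of the 170 UMIs of Irx2. In libraries 7 to 9 it was at 46.3 CPM (37.8 to 56.2) in EPC-like cells and at 37.5 CPM (26.4 to 51.6) in astrocyte-like cells, with overlapping intervals. The EPC-like cells of libraries 7, 8 and 9 had 58.9, 51.6 and 38.8 CPM, with overlapping intervals, while those of libraries 4 to 6 had 2 UMIs in 540 cells. Six3 and Irx2 therefore divided the EPC-like cells by library. Neuron-like cells of libraries 7 to 9 had 26.9 CPM of Irx2 (15.7 to 43.0), and their microglia-like cells 1.01 CPM.

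Zic1 was highest in fibroblast or leptomeningeal-like cells, at 252 CPM (221 to 285), and pericyte-like cells, at 228 CPM (201 to 257), whose intervals overlapped, followed by VSMCA-like cells (arterial smooth muscle), at 138 CPM (121 to 156). In these 3 classes together Zic1 was at 286, 249.5 and 141 CPM in libraries 1 to 3, at 112, 139 and 112 CPM in libraries 4 to 6 and at 209, 206 and 178 CPM in libraries 7 to 9. The intervals of all 9 libraries overlapped each other, although over all cells the levels of libraries 1 to 6 lay below those of libraries 7 to 9. Libraries 4 to 6 rest on 12, 15 and 6 UMIs there. Their levels lay below those of libraries 7 to 9, but the intervals of single libraries were too wide to separate them. Sums over several libraries were not compared for these cells.

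The share of these cells was 7.92%, 9.13% and 10.2% in libraries 1 to 3, 4.47%, 7.46% and 1.40% in libraries 4 to 6, and 23.6%, 25.4% and 26.2% in libraries 7 to 9. Libraries 7 to 9 thus had the highest shares and the highest library levels of Zic1, while within libraries 1 to 3 the share did not follow the level. In all other cells Zic1 was at 2.34 to 9.80 CPM in libraries 1 to 6, 13.1 and 11.8 CPM in libraries 7 and 8, and 55.2 CPM (47.9 to 63.2) in library 9. There the intervals of libraries 7 (9.45 to 17.6) and 8 (7.98 to 16.9) overlapped those of libraries 1, 2, 4 and 5. They lay above those of libraries 3 and 6. Fibroblast or leptomeningeal-like cells alone had 468, 478, 307, 202, 155, 113, 209, 282 and 263 CPM in libraries 1 to 9, so this class did not follow the order of the library levels. Pericyte-like cells of libraries 7, 8 and 9 had 318, 247 and 168 CPM.

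Library 9 stood apart in the remaining cells. Its neuron-like cells had 193 CPM of Zic1 (136 to 264), against 41.0 CPM (17.7 to 80.7) in library 7 and 20.8 CPM (6.77 to 48.6) in library 8. Its EPC-like cells had 66.4 CPM, against 13.6 and 16.6 CPM in libraries 7 and 8, and its 80 choroid plexus epithelium-like cells, a class with 5 cells in library 7 and 0 in library 8, had 74.4 CPM. Microglia-like cells of library 9 had 18.5 CPM (8.85 to 33.9).

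**Figure D5:**
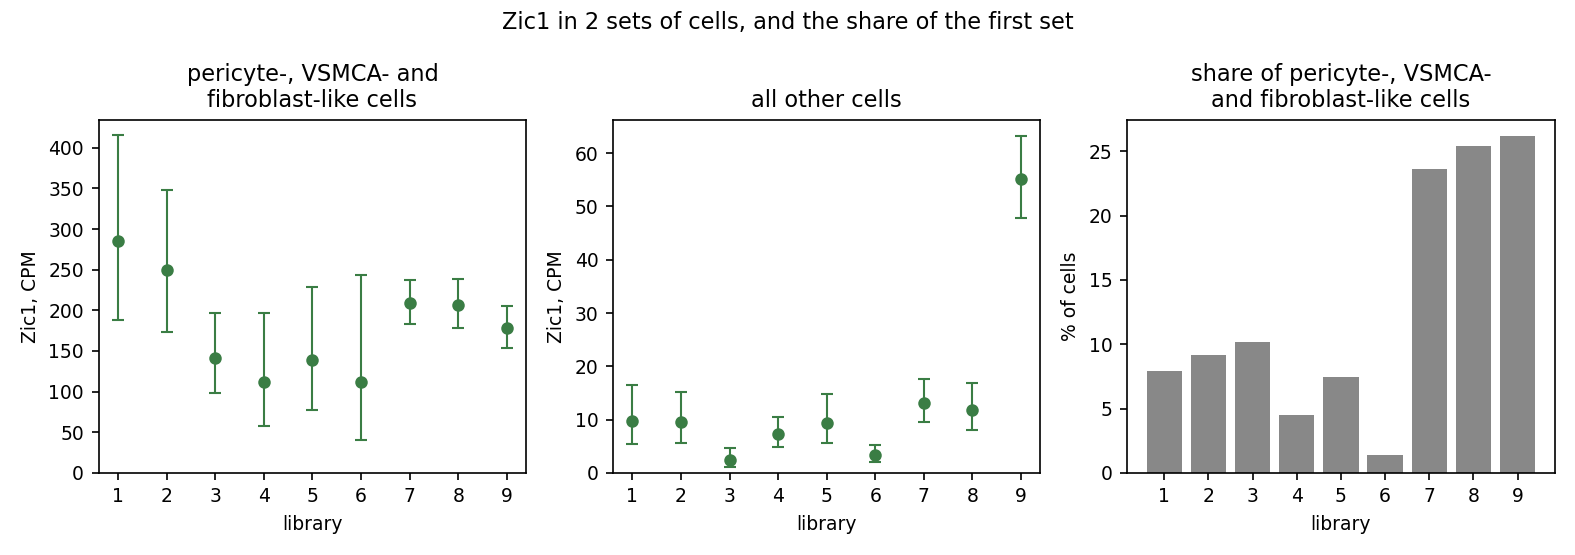
CPM of Zic1 with exact 95% Poisson intervals in pericyte-, VSMCA- and fibroblast-like cells (left) and in all other cells (middle) of each library, and the percentage of cells in the first set (right, bars from 0). Intervals in the first set overlap between all 9 libraries, other cells stand out in library 9, and the share of the first set is 23.6% to 26.2% in libraries 7 to 9 and at most 10.2% elsewhere.

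For library 7 the published cell types could be used, for 1999 of its 3731 cells in 12 types, of which 1 cell is listed as unknown. Lhx2, Emx2, Neurod6, Six3 and Six6 had no UMI in these cells and Rax had 2. Nkx6-2 had 38 UMIs, 27 of them in 188 astrocytes, at 159 CPM (105 to 231), and 7 in 88 EPC, at 41.1 CPM (16.5 to 84.6). Irx2 had 12 UMIs, 9 in EPC, at 52.8 CPM (24.2 to 100.3), and 3 in astrocytes. Microglia, at 549 cells, had 2 UMIs of Nkx6-2 and none of Irx2.

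Zic1 had 164 UMIs in the listed cells. Pericytes, the cells that wrap capillaries, held 71 of them, at 480.0 CPM (375 to 605) and in 60 of 168 cells, and VSMCA held 43, at 139.6 CPM (101 to 188). Astrocytes had 58.8 CPM, EPC 41.1 CPM, endothelial cells 17.0 CPM and microglia 9.86 CPM, and macrophages had no UMI in 67 cells. All 5 UMIs of the type called Neuron Other lay in 1 cell. The leading type was at least 4 times the other listed cells for Nkx6-2, at 30.0 times, and Zic1, at 10.8 times, beside 43.4% of genes with 10 or more UMIs in these cells. Irx2 reached 10 UMIs only through EPC, so its fold is not read.

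Markers put limits on some of these types. All 7 pericyte markers were at least 2-fold higher in listed pericytes, but so were all 7 markers of fibroblasts and leptomeninges, and 46 of the 168 cells fell in the fibroblast or leptomeningeal-like cluster of library 7. Zic1 was at 579 CPM (427 to 767) in the 116 listed pericytes of pericyte-like clusters and at 370.5 CPM (232 to 561) in those 46. The 43 listed oligodendrocytes, with 12 UMIs of Zic1 (139 CPM) and none of Nkx6-2, had 63 UMIs of Cldn11 but 1 of Mbp and none of Mag, Mobp and Ermn. All 7 fibroblast and leptomeningeal markers were detected in them, with 44 UMIs of Dcn, 32 of Col1a2 and 1 to 12 of each of the rest. Of these 7 markers 4 were at least 2-fold higher there, and 1 of the oligodendrocyte markers was. Of the 43 cells, 36 fell in a cluster of library 7 that stayed unnamed. Mag, Mobp and Ermn, which define myelinating cells, were thus not detected in this type.

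A wider list of position genes was read beside the 9, of 73 genes in 4 groups, 67 of them in the table and 39 with at least 50 UMIs. This list too was chosen with earlier results of these data known. The highest library was at least 4 times the median for 31 of the 39, beside the 13.3% of genes with at least 50 UMIs given above. These were 14 of 14 telencephalic genes, 6 of 7 hypothalamic, 6 of 7 pituitary and 5 of 11 midbrain, hindbrain and spinal cord genes. Some, such as Nkx2-1 and Pitx1, reached 50 UMIs only through the libraries where they are high. With no minimum 35 of 67 passed, beside 10.9% of all genes. By group these were 15 of 19, 8 of 12, 6 of 10 and 6 of 26, in the same order. Of the 14 telencephalic genes with at least 50 UMIs 13 were highest in 1 of libraries 1 to 3, and Dlx1 in library 5, at 8.48 CPM. The share of all genes highest in those libraries was not computed. The 5 telencephalic genes under 50 UMIs had their highest library elsewhere, Dlx2, Dlx5, Dlx6 and Lhx6 in library 4 or 5 and Sp8 in library 8, and these genes are named after their values were seen. Summed over the telencephalic genes the level was 488 to 684 CPM in libraries 1 to 3 and 16.9 to 60.5 CPM in the other 6. The pituitary genes summed to 213 to 358 CPM in libraries 4 to 6 and 5.25 to 38.2 CPM elsewhere, and the midbrain, hindbrain and spinal cord genes to 198 to 259 CPM in libraries 7 to 9 and 29.1 to 55.6 CPM elsewhere. The hypothalamic group did not separate as a sum, with 66.3 to 83.3 CPM in libraries 1 to 3, 38.8 to 117 CPM in libraries 4 to 6 and 29.3 to 34.9 CPM in libraries 7 to 9. Arnt2 and Tbx3 made up the whole sum in libraries 1 to 3, where the other 10 of the 12 genes had no UMI, and these 10 had 75.7% to 100% of their summed CPM in libraries 4 to 6. The 10 were split off by their values in libraries 1 to 3, which partly fixes that share. Some of them rest on few UMIs, the lowest on 3. The share of all genes under such a split was not computed.

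Among the genes with the most UMIs in each group, Tbr1, Neurod2 and Cux2 of the telencephalon had 90.6% to 99.4% of their summed CPM in libraries 1 to 3. Pou1f1 and Pitx1, which build the pituitary, and Nkx2-1 and Nr5a1 of the hypothalamus had 99.9% to 100% in libraries 4 to 6. Arnt2, in the hypothalamic group, had 77.8% in libraries 1 to 3. Tbx3 and Gata2 were highest in library 7, at 22.3 and 38.2 CPM. Irx5, Zic4 and Zic5 had 66.7% to 71.5% in libraries 7 to 9, close to the 68.7% of Zic1.

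Irx5 had 0 UMIs in libraries 1 to 3 and 27, 17 and 40 in libraries 4 to 6. Summed over Irx1, Irx3 and Irx5, the other Iroquois genes had 15.9, 17.0 and 14.6 CPM in libraries 4 to 6 and 27.2, 38.6 and 47.0 CPM in libraries 7 to 9. Irx2 had 1, 0 and 4 UMIs in libraries 4 to 6. Libraries 7 to 9 held 80.1% of the summed CPM of Irx1, 65.4% of Irx3 and 71.5% of Irx5, beside the 97.6% of Irx2, a grouping picked after the values were seen.

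Within libraries 7 to 9 the hindbrain genes did not all follow 1 order. The 10 Hox genes of the list, which give segments of the hindbrain and spinal cord their identity, summed to 129, 25 and 185 UMIs in libraries 7, 8 and 9, or 29.0, 7.26 and 37.9 CPM, with at most 3 UMIs in any of libraries 1 to 6. En1 and En2, genes of the midbrain and anterior hindbrain, summed to 11, 93 and 79 UMIs, or 2.47, 27.0 and 16.2 CPM. Library 8 was low in Hox genes and high in En1 and En2, library 7 the reverse, and library 9 held both. These 2 sums were picked after their values were seen.

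In EPC-like cells En1 and En2 kept the library order, at 15.9, 83.2 and 31.9 CPM from 7, 50 and 37 UMIs in libraries 7, 8 and 9. The intervals of libraries 7 (6.38 to 32.7 CPM) and 9 (22.5 to 43.9 CPM) overlapped. The Hox genes had 39, 0 and 48 UMIs there, or 88.4 (62.9 to 121), 0 and 41.4 CPM (30.5 to 54.8), so library 8 was again lowest but library 7 lay above library 9, unlike over all cells. In astrocyte-like cells both sums had the order of levels seen over all cells. The Hox genes had 10, 1 and 35 UMIs, or 37.2, 2.94 and 92.5 CPM. En1 and En2 had 1, 20 and 7 UMIs, or 3.72, 58.8 and 18.5 CPM. The intervals of libraries 7 and 9 overlapped for both sums there. In neuron-like cells the order over all cells was not seen for either sum, since the Hox genes had 6, 11 and 46 UMIs with overlapping intervals in libraries 7 and 8, and En1 and En2 were highest in library 9, with 2, 20 and 24 UMIs or 10.2, 83.4 and 122 CPM. Irx2 in the same EPC-like cells, given above, had overlapping intervals and showed neither order. Nkx6-2 in astrocyte-like cells was at 153, 206 and 124 CPM in libraries 7 to 9, with overlapping intervals.

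The genes most like each of the 9 across libraries were found among 11235 genes with at least 200 UMIs, by the overlap of the shares of summed CPM over 9 libraries, where 1 is the same profile. Closest were Myh7 to Lhx2 (0.930), 3110035E14Rik to Emx2 (0.950), Nrgn to Neurod6 (0.978), Irs4 to Rax (0.940), Epcam to Six3 (0.976), Rab25 to Six6 (0.960), Agt to Nkx6-2 (0.911), Nkx6-1 to Irx2 (0.895) and Sowahc to Zic1 (0.914). The next in order were Ppp1r3g and Lingo3 for Lhx2, Kcnv1 and Ppp1r3g for Emx2, Gm11549 for Neurod6, and Zim1 and Fzd5 for Rax. For Six3 they were Fetub and Kcnh8, for Six6 Pitx1 and Lhx3, for Nkx6-2 Cpn1 and Rgs22, for Irx2 Cd36 and Ankub1, and for Zic1 Col8a1 and Abhd2. The points share library, depth and cell makeup, and the values are descriptions. Myh7 and Ppp1r3g for Lhx2, Nrgn for Neurod6, Lhx3 for Six6, Cpn1 for Nkx6-2, Ankub1 for Irx2 and all 3 genes given for Zic1 were not among the leading 20 when genes were ranked by Pearson's r instead.

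Across the 27 clusters in place of libraries, the closest gene was Six6 for Six3 (0.739), Col23a1 for Rax (0.766), Zic4 for Zic1 (0.855), Irx3 for Irx2 (0.654) and Agt for Nkx6-2 (0.914). Agt, the angiotensinogen gene that leads astrocyte cluster 9, was thus closest to Nkx6-2 by both measures. Rgs20 was closest to Lhx2 (0.839), Ppp1r3g to Emx2 (0.873), Kcnv1 to Neurod6 (0.930) and Epcam to Six6 (0.804).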

How the data were processed

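The authors deposited 1 table of counts, whole-number UMIs per gene and cell, from Cell Ranger 2.2.0 with reads mapped to GRCm38, as the submitters' processing notes and the study's methods give. The annotation release and the use of strand are not given in the sources used here. Depth was 1522766 to 5488950 UMIs per library. UMIs were summed per library, listed cell type or class and scaled to CPM with Python 3.11.15, numpy 2.4.6 and scipy 1.17.1. All deposited cells were kept, and no doublet caller was run. Cells were clustered on 2000 variable genes without the 9 genes, by 13 principal components, 20 neighbours and Leiden at resolution 1 (leidenalg 0.10.2), and named from 16 marker lists. A name needed 3 markers at least 2-fold higher, with 10 CPM added, and in 10% of cells. The scripts were tested on simulated data. The 9 genes and the lists were chosen with earlier results of these data known. Other genes named are the 4 with the most UMIs in each group of the wider list, the 3 most like each of the 9, markers, and overlapping genes. Some genes that this rule names are not reported here. Gene positions are from GENCODE M21 (GRCm38) and promoter windows from RefSeq. Alternatives changed the cells kept, the totals, the mean, the types, the resolution, the fold, the minimum and the likeness measure.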

Additional observations from a re-analysis of the deposited data

How the results depend on the processing

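No paired analysis was possible because each region and sleep group is 1 library. With only cells of at least 1000 UMIs, without mitochondrial and hemoglobin genes, without pituitary hormone genes, by the mean over cells of CPM, and without the 5% of cells with the most UMIs, 8 or 9 of the 9 genes kept their 3 highest libraries, Nkx6-2 being the exception under the first 2. The count of genes at 4 times the median stayed at 7 under all 5, but with cells of at least 1000 UMIs Rax was below it and Zic1 above it. In those cells Rax was at 0 in libraries 1 to 3, 11.4, 11.1 and 10.0 CPM in libraries 4 to 6 and at most 0.674 CPM in libraries 7 to 9, so its call was lost where values under 3 UMIs were raised to 3. Named clusters of library 7 put Zic1 first in fibroblast or leptomeningeal-like cells in place of listed pericytes. At resolution 0.5 no cluster stayed unnamed, the pituitary stem or folliculostellate-like cluster grew from 507 to 1259 cells, and Rax led there, and with cells of at least 1000 UMIs Lhx2 led in the unnamed cluster. Of the wider list and the 9 genes, 38 of 48 passed 4 times the median and 46 of 48 passed 2 times, beside 44.3% of genes with at least 50 UMIs. With no minimum 42 of 76 passed 4 times, beside 10.9% of all genes. By Pearson's r of log2 CPM, 18 of the 27 most like genes stayed among the leading 20. Without microglia-like clusters 23 and 24, an alternative chosen after seeing the data, the Lhx2 background of libraries 1 to 3 was 22.6 in place of 52.3 CPM. Of the 81 single levels, 33, 3, 16, 19 and 8 lay outside the interval of the reported value under these 5 settings in turn. With cells of at least 1000 UMIs the levels resting on 20 or more UMIs were 0 to 2.32 times the reported ones, with a median of 0.729, and the cause was not tested. Irx2 and Emx2 had the fewest UMIs of the 9 genes, with 170 and 162 in all, and shallow cells of libraries 1, 2 and 5 limit shares of cells.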
